A study of Homo sapiens with 24 samples.

Results

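Interferon-stimulated genes are the transcripts that cells raise when they receive an interferon signal. A list of 41 such genes was followed in MCF10A cells, an established non-tumorigenic line of human breast epithelium. A gene counted as measured when a probe set, the unit that the array reports, carried its symbol and no other, and where a gene had several, the brightest on average stood for it. By that rule 39 of the 41 genes were measured, among 18417 genes on the array. STAT2 had no probe set of its own, and the probe set of GBP1 was shared with other genes, so neither is given a value.

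The cells carried 1 of 3 oligonucleotides, delivered with Oligofectamine: a non-targeting control (control), an siRNA oligonucleotide against hsa-miR-20a (si-miR-20a) or an siRNA oligonucleotide against hsa-miR-671-5p (si-miR-671). EGF was given for 0, 30, 60 or 120 min before RNA was prepared, which made 12 groups of 2 arrays. The labels call these biological replicates, without saying whether they came from separate transfections, so p-values measure the spread between these arrays. All cells had been grown in medium with EGF, insulin, cholera toxin, hydrocortisone and horse serum. No group was given an interferon, and none was kept without EGF for the same times, so EGF and time in culture cannot be told apart.

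Interferons bind receptors on the cell surface, whose associated Janus kinases phosphorylate STAT proteins. Type I and type III interferons act mainly through a complex of STAT proteins with IRF9, which binds the interferon-stimulated response element (ISRE), while interferon gamma acts mainly through STAT dimers that bind the gamma-activated site (GAS). Many of the induced genes encode proteins that sense viral RNA, block translation or replication, or feed back on the signal, and epithelial cells keep a low level of many of them without infection.

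The oligonucleotides were directed at the microRNAs whose mature sequences stand here so that the perturbation can be seen. The sequences are from RefSeq on GRCh38.p14, at chr13:91351072-91351094 on the plus strand for hsa-miR-20a-5p and chr7:151238449-151238471 on the plus strand for hsa-miR-671-5p. The label for miR-20a names no arm, and the 5p arm is printed. Capitals mark the seed, bases 2 to 8.
hsa-miR-20a-5p: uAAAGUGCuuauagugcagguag
hsa-miR-671-5p: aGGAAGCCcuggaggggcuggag
The seeds differ. The mature microRNAs were not measured by these arrays, and the transcript MIR17HG, which hosts miR-20a, differed from control by a log2 change of -0.16 ± 0.08 (SE, 8 arrays a side) with si-miR-20a (limma adjusted p = 0.21). CHPF2, the gene whose span holds miR-671, was lower with si-miR-671 by a log2 change of -0.22 ± 0.05 (limma adjusted p = 0.012) and changed by -0.14 ± 0.05 with si-miR-20a, which was not called (limma adjusted p = 0.066).

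The promoters of the listed genes were searched for both elements, because the members below move in different directions. The ISRE core was searched as GAAA, any 2 bases, GAAA on either strand, and GAS as TTCNNNGAA, which reads the same on both strands. The window was the 250 bases before the RefSeq start of each gene. An entry was found for 33 of the 41 genes, and the genes without one were USP18, MX2, TRAFD1, OASL, OAS2, TRIM22, IFIT2 and IRF7. Of the 33 genes, 21 held an ISRE core (63.6%), against 3.71% of the 27305 genes with a window. GAS was found in 9 of the 33 (27.3%), against 8.09% of all genes. The stretches that hold the matches are printed for 8 genes on which the results turn, 5′ to 3′ on the strand of the gene, with the matches in capitals. In IFIT1 the matches lie on the opposite strand. PARP14 holds both elements, GAS first, while IRF1 and IRF9 hold GAS and no ISRE core in this window.
IFIT1: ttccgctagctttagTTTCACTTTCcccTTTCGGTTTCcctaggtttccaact
IFI44L: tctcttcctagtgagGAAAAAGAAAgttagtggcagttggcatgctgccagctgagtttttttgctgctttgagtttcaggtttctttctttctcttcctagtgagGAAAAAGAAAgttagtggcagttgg
IFI6: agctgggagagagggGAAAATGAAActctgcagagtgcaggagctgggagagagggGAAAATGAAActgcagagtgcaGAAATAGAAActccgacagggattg
SAMD9: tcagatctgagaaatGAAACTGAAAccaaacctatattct
PARP14: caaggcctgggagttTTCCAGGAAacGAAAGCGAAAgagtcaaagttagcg
CXCL10: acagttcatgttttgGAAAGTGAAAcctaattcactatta
IRF1: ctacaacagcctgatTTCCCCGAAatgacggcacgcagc
IRF9: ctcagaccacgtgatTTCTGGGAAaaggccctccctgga
On GRCh38.p14 these stretches are chr10:89392492-89392544 on the plus strand (IFIT1), chr1:78620269-78620399 on the plus strand (IFI44L) and chr1:27672261-27672363 on the minus strand (IFI6). SAMD9 is at chr7:93118091-93118130 on the minus strand, PARP14 at chr3:122680784-122680834 on the plus strand and CXCL10 at chr4:76023694-76023733 on the minus strand. IRF1 is at chr5:132490874-132490912 on the minus strand and IRF9 at chr14:24161187-24161225 on the plus strand. A match describes the letters and not a bound site.

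The values are log2 levels as deposited, with array medians between 6.56 and 6.57, so a difference of 1 is a 2-fold change. A gene is called changed where limma gave an adjusted p under 0.05 over all 19460 probe sets with 1 symbol. The EGF treatment could be seen in transcripts outside the list: FOS rose by 3.98 ± 0.08 at 30 min and DUSP6, a phosphatase that EGF induces, by 1.73 ± 0.04 at 120 min (SE, 6 arrays a side). The basal epithelial markers KRT5, KRT14, LAMB3, ITGB4 and CDH3 had mean levels between 11.17 and 11.47 on every array. The 5 luminal markers had mean levels between 7.73 and 8.03 and were unlike each other. KRT18 (10.94 to 11.36) and KRT8 (10.55 to 10.92) read about as high as the basal markers ITGB4 and CDH3, while KRT19, ESR1 and PGR did not exceed 7.03. The 5 immune cell markers measured (PTPRC, CD3E, CD14, CD68 and ITGAM) had mean levels between 6.10 and 6.54. Within that list the levels were unlike: PTPRC, the pan-leukocyte marker, did not exceed 4.95, near the lower quartile of the arrays, while CD14 read 7.48 to 8.40 and CD68 7.47 to 8.06, above every array's median. With si-miR-671 the late arrays (60 and 120 min) stood apart from the early ones (0 and 30 min): against control, limma called 546 probe sets (2.81%) over 0 and 30 min and 2999 (15.4%) over 60 and 120 min. The 2 replicates of si-miR-671 at 120 min also had the lowest correlation of any group, 0.973 against up to 0.992. The members called with si-miR-671 are therefore given at the early and late times too. The next lowest correlations were those of si-miR-20a at 60 min (0.977) and at 0 min (0.979).

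Among the 39 measured genes, 38 had a mean level above 4.96, the lower quartile of all probe sets, and RSAD2 lay below it. The SD between replicates, pooled over groups, ran from 0.06 (TRAFD1) to 0.35 (MX1), with a median of 0.16. MX1, ISG15 and RSAD2 were the noisiest members, so changes of a given size were harder to call in them. Several members are neighbours on their chromosomes: IFI44L and IFI44, IFIT2 and IFIT3, IFIT1 and IFIT5, OAS1, OAS3 and OAS2, MX2 and MX1, HERC6 and HERC5, PARP9 and DTX3L, SAMD9 and SAMD9L, and CMPK2 and RSAD2. PSMB9 had 3 probe sets with identical values, which count as 1 measurement.

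**Figure D1:**
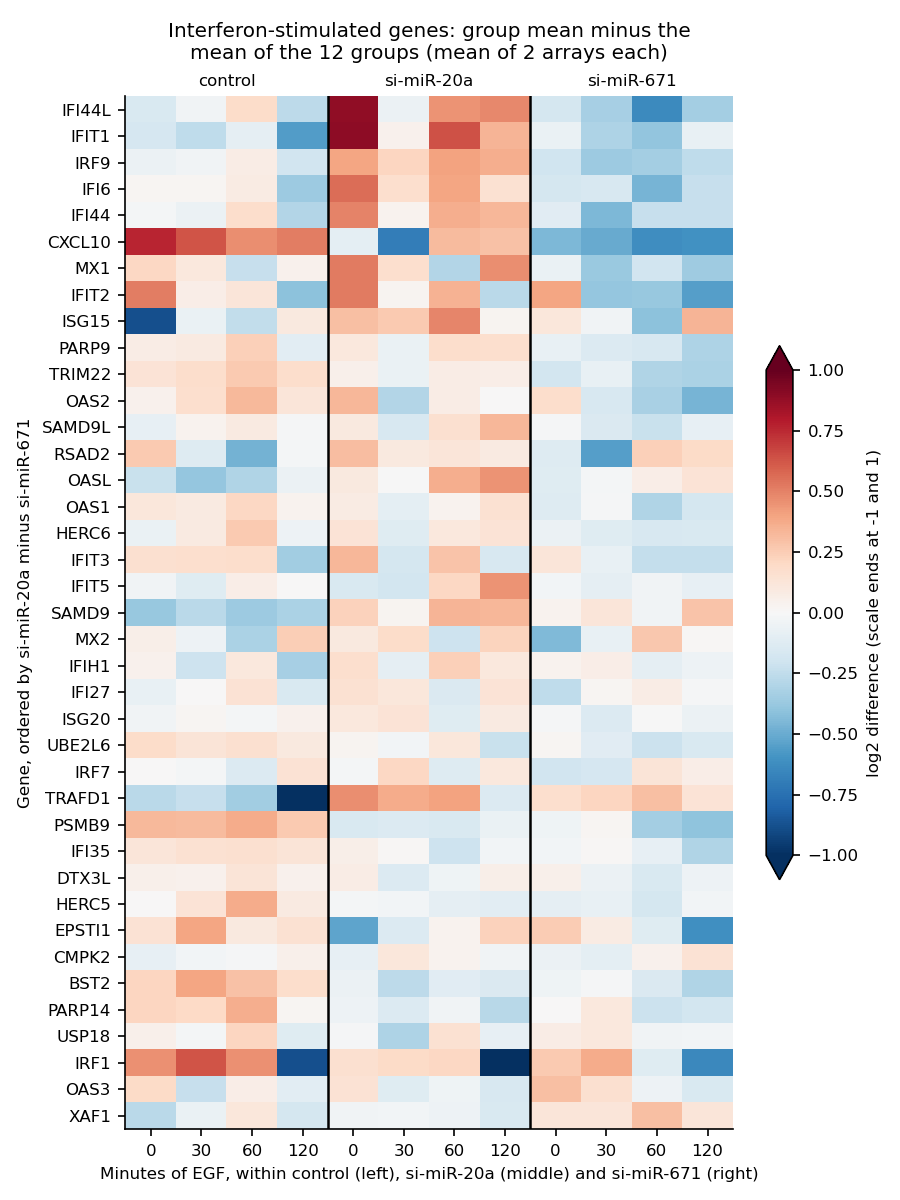
Mean log2 level of each measured gene (rows, ordered by the difference of si-miR-20a from si-miR-671) in the 12 groups of 2 arrays (columns: transfection and minutes of EGF), as the difference from that gene's mean over all groups, with the colour scale ending at -1 and 1. IRF1 and IFIT2 are lowest in the columns at 120 min, IFIT1 and IFI44L are highest in si-miR-20a at 0 min, and CXCL10 is low in every si-miR-671 column.

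With EGF, the listed genes that changed on average over the 3 transfections all fell. At 120 min 8 of 39 were lower than at 0 min and none was higher, with 6.27% of all probe sets called lower and 7.13% called higher. The median change over the 39 genes was -0.07, beside 0.01 over all probe sets. The deepest falls were those of IRF1, a transcription factor that drives interferon-responsive genes, and of IFIT2, an RNA-binding antiviral protein.

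For IRF1 the 6 arrays at 0 min ran from 8.39 to 8.79 (median 8.52), and the 6 at 120 min from 7.08 to 7.78 (median 7.37). The groups did not overlap, and the average fell by 1.16 ± 0.07 (2.24-fold, limma adjusted p = 1.5e-08). The fall was called within each transfection: -1.34 in control, -1.25 in si-miR-20a and -0.90 in si-miR-671 (SE 0.12 each, 2 arrays a side), beside 2.96%, 7.64% and 5.95% of all probe sets called there in either direction. At 30 and 60 min no change of IRF1 was called in the averages.

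IFIT2 fell earlier. Its arrays ran from 6.30 to 6.70 at 0 min (median 6.45), from 5.52 to 6.24 at 30 min (median 5.89), from 5.37 to 6.46 at 60 min (median 6.11) and from 5.41 to 5.81 at 120 min (median 5.58). The arrays at 30 and 120 min lay wholly below those at 0 min, while those at 60 min overlapped them. The average changes were -0.57 ± 0.10 at 30 min (adjusted p = 0.0052), -0.45 ± 0.10 at 60 min (adjusted p = 0.017) and -0.88 ± 0.10 at 120 min (adjusted p = 1.2e-05) by limma. The call at 60 min was lost (adjusted p 0.057 to 0.063) without any of 6 arrays: control 0 min replicate 1, control 60 min replicate 2, si-miR-671 0 min replicate 2, si-miR-671 60 min replicate 2, si-miR-20a 0 min replicate 1 or si-miR-20a 60 min replicate 2. Over control and si-miR-20a alone IFIT2 was called at neither of these times: -0.47 ± 0.12 at 30 min (limma adjusted p = 0.17, beside 0.488% of all probe sets called) and -0.28 ± 0.12 at 60 min (limma adjusted p = 0.29, beside 2.05%). At 30 min no single transfection gave a call, with -0.44 in control, -0.50 in si-miR-20a and -0.78 in si-miR-671 (SE 0.17 each), while the fall at 120 min was called in each.

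At 30 min the called members were IFIT2 and IFIT1, beside 0.0411% of all probe sets called lower and 0.725% called higher, and at 60 min IFIT2, beside 0.493% lower and 2.16% higher. IFIT1, which binds viral RNA that lacks the cap methylation of host mRNA, fell by 0.40 ± 0.07 at 30 min on average (adjusted p = 0.0058 by limma). That average holds unlike changes: -0.86 ± 0.12 in si-miR-20a, which was called (beside 0.0257% of all probe sets called lower), -0.25 ± 0.12 in si-miR-671 and -0.08 ± 0.12 in control, which were not (2 arrays a side).

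The other falls at 120 min were smaller. TRAFD1, a zinc finger protein that dampens innate immune signalling, changed by -0.48 ± 0.05, IFIT3, a partner of IFIT1 and IFIT2, by -0.45 ± 0.09, and IFIT1 by -0.32 ± 0.07. IFI6, a membrane protein with antiviral and antiapoptotic activity, changed by -0.28 ± 0.07, PARP14, an ADP-ribosyltransferase, by -0.20 ± 0.06, and UBE2L6, the conjugating enzyme for ISG15, by -0.17 ± 0.05. Their limma adjusted p ran from 4e-06 for TRAFD1 to 0.035 for PARP14. The fall of IFIT1 was -0.39 in control, -0.56 in si-miR-20a and -0.01 in si-miR-671 (SE 0.12 each), and si-miR-20a alone gave a call. TRAFD1 was called in control and si-miR-20a, and IFIT3, IFI6, PARP14 and UBE2L6 in no single transfection. The calls of IFI6, PARP14 and UBE2L6 were lost without any 1 of 5 to 7 of the 24 arrays, and those of PARP14 and UBE2L6 also with all probe sets tested and with array weights (adjusted p 0.05 to 0.067 by limma). Of these genes, only the IFIT3 arrays were wholly separate, 6.76 to 7.18 at 120 min and 7.24 to 7.80 at 0 min. The remaining 31 members were not called at 120 min, among them all 5 of the RNA sensing and OAS family, whose changes ran from -0.35 (OAS3) to 0.26 (OASL). Without the si-miR-671 arrays, 6 genes were lower at 120 min (IRF1, IFIT2, TRAFD1, IFIT3, IFIT1 and IFI6) and IFIT5 was higher, beside 4.04% and 5.55% of all probe sets.

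**Figure D2:**
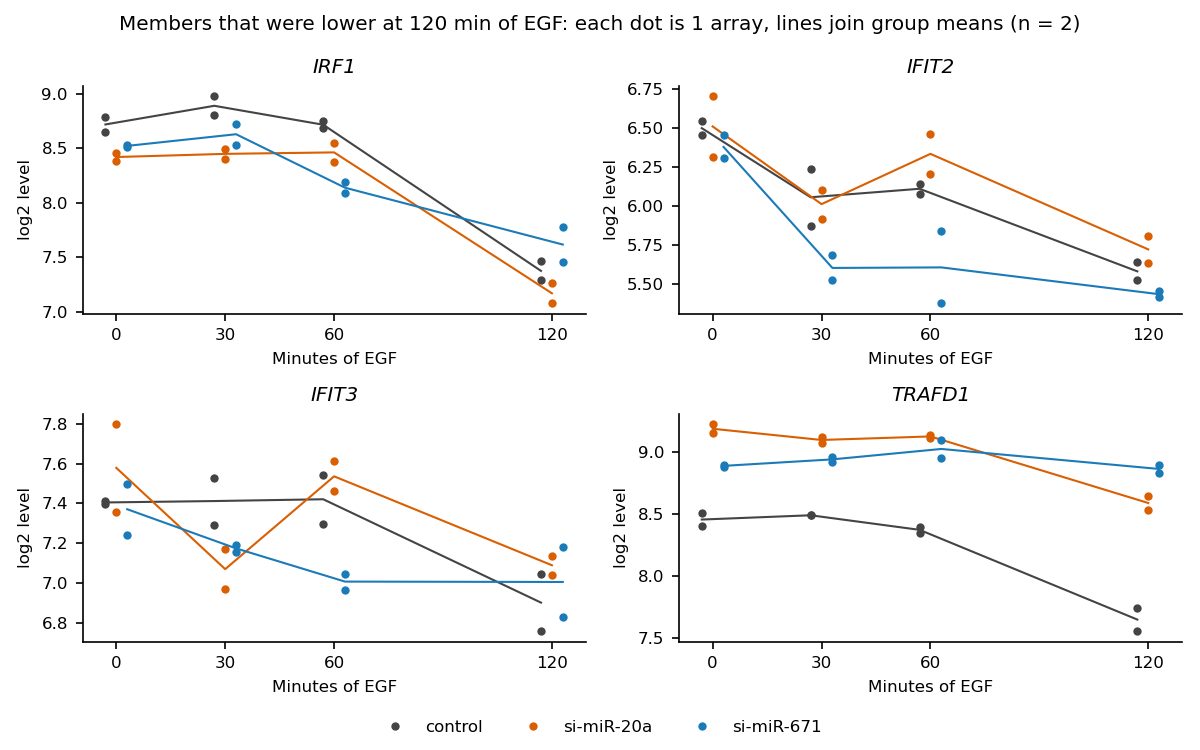
Log2 level of IRF1, IFIT2, IFIT3 and TRAFD1 on each of the 24 arrays (points) against minutes of EGF, with lines through the means of 2 arrays for each transfection and a separate vertical scale for each gene. IRF1 drops between 60 and 120 min in all 3 transfections, while TRAFD1 drops at 120 min in control and si-miR-20a and stays between 8.84 and 9.10 in si-miR-671.

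With si-miR-20a the listed genes moved in both directions. Averaged over the 4 times, 10 of 39 were higher than in control and 8 were lower, beside 11.9% of all probe sets called higher and 12.7% called lower. As shares of the 39 that is 25.6% and 20.5%. The median over the 39 was 0.03, beside 0.01 over all probe sets. The higher genes included TRAFD1, IFIT1, SAMD9, ISG15 and IFI44L, and the lower ones CXCL10, PSMB9 and BST2.

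Among the transcription factors, IRF9, the DNA-binding partner of the STAT proteins at ISRE, was higher: 8.35 to 8.66 over the 8 si-miR-20a arrays (median 8.61) and 7.96 to 8.33 over the 8 control arrays (median 8.20). The groups did not overlap, and the difference was 0.39 ± 0.05 (1.31-fold, limma adjusted p = 7.2e-05). IRF1 was lower by a log2 change of -0.30 ± 0.06, with overlapping arrays and its lowest levels at 120 min in both. IRF7 was not called.

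IFIT1 ranged from 6.48 to 7.44 with si-miR-20a (median 7.0) and from 5.92 to 6.57 in control (median 6.30). The ranges overlapped slightly, and the average was 0.75 ± 0.06 higher (1.68-fold, limma adjusted p = 3.5e-07). No other IFIT gene was called in this average. IFIT1 stood 1.07 ± 0.12 above control at 0 min, 0.29 ± 0.12 at 30 min, 0.73 ± 0.12 at 60 min and 0.89 ± 0.12 at 120 min. By limma the adjusted p was 0.18 at 30 min and 0.0016 or lower at the other times.

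IFI44L, an interferon-induced protein of the same gene pair as IFI44, gave 6.10 to 7.24 (median 6.67) against 5.89 to 6.55 in control (median 6.13), a difference of 0.50 ± 0.08 (adjusted p = 0.00026 by limma). Its difference also varied by time, at 1.04 ± 0.16 at 0 min and -0.02 ± 0.16 at 30 min. IFI44 (0.35 ± 0.08) and IFI6 (0.38 ± 0.06) were higher as well, each with arrays that overlapped control.

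SAMD9, an antiviral factor that restricts poxviruses, ranged from 8.46 to 8.95, wholly above the control arrays at 8.05 to 8.34 (medians 8.71 and 8.13). The difference was 0.56 ± 0.06 (1.48-fold, limma adjusted p = 1.2e-05). TRAFD1 also did not overlap control, at 8.54 to 9.23 against 7.56 to 8.51 (medians 9.12 and 8.40), a difference of 0.76 ± 0.04 (1.69-fold, limma adjusted p = 1e-08). ISG15, the ubiquitin-like modifier, was the least precise of the called rises: 6.29 to 7.12 (median 6.83) against 5.17 to 6.82 (median 6.32), 0.55 ± 0.15 (adjusted p = 0.018). Its lowest array was control 0 min replicate 1, and its other 7 control arrays lay between 6.10 and 6.82. At 120 min its difference was -0.07 ± 0.31. OASL (0.47 ± 0.09), an OAS-like protein that enhances RNA sensing, and IFIH1 (0.20 ± 0.07), the RNA sensor MDA5, completed the higher genes. The control arrays of OASL, at 4.78 to 5.37, lay close to the lower quartile of the arrays. The call of IFIH1 was lost without any 1 of 9 arrays, with all probe sets tested and with array weights (limma adjusted p 0.054 and 0.079 in these settings).

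The lower genes lay partly in the same roles as the higher ones. The transcription factors, the ISG15 system, the IFI genes and the other antiviral effectors each held calls in both directions, while in the antigen processing and chemokine pair (2 of 2) and among PARP9, DTX3L and PARP14 (1 of 3) the calls were lower. CXCL10, a chemokine that attracts T cells, ranged from 4.19 to 5.47 with si-miR-20a (median 5.01) and from 5.33 to 6.08 in control (median 5.50), a log2 change of -0.64 ± 0.11 (adjusted p = 0.00042 by limma). Its parts were -1.09 ± 0.15 over 0 and 30 min, which was called (beside 7.17% of all probe sets called lower), and -0.18 ± 0.15 over 60 and 120 min, which was not (beside 7.75%). The difference of these parts was 0.90 ± 0.21 and did not pass (limma adjusted p = 0.33, beside 0.00514% of probe sets called). Every early si-miR-20a array of CXCL10 (4.19 to 4.94) lay under the lower quartile of its probe sets. Whether these levels are above background was not tested. PSMB9, a catalytic subunit of the immunoproteasome, ranged from 8.84 to 9.16 against 9.35 to 9.50 in control (medians 8.98 and 9.44), -0.45 ± 0.05. BST2, also called tetherin, which holds budding virus at the cell surface, ranged from 6.63 to 6.90 against 7.03 to 7.35, -0.41 ± 0.07. Neither overlapped control. PARP14 (-0.32), IFI35 (-0.18), UBE2L6 (-0.17) and TRIM22 (-0.16) were lower by smaller amounts, and the calls of IFI35 and TRIM22 were lost without any 1 of 5 and 11 arrays, and in a fit of the 16 arrays of si-miR-20a and control (limma adjusted p = 0.059 and 0.087). TRIM22 was not called with all probe sets tested either (0.055).

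The promoter letters can be set beside these directions as a description. Of the 10 genes that were higher with si-miR-20a, 8 had a promoter entry and 7 of those held an ISRE core, IRF9 being the exception, and IRF9 alone held GAS. Of the 8 lower genes, 7 had an entry, 3 held an ISRE core (BST2, CXCL10 and PARP14) and 4 held GAS (BST2, IFI35, IRF1 and PARP14). Among all 31 measured genes with an entry, 20 held an ISRE core (64.5%) and 9 held GAS (29%). Of the 6 genes with an entry that were lower at 120 min of EGF, 4 held an ISRE core and 2 GAS. For the 11 with an entry that were lower with si-miR-671, the numbers were 5 and 6.

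**Figure D3:**
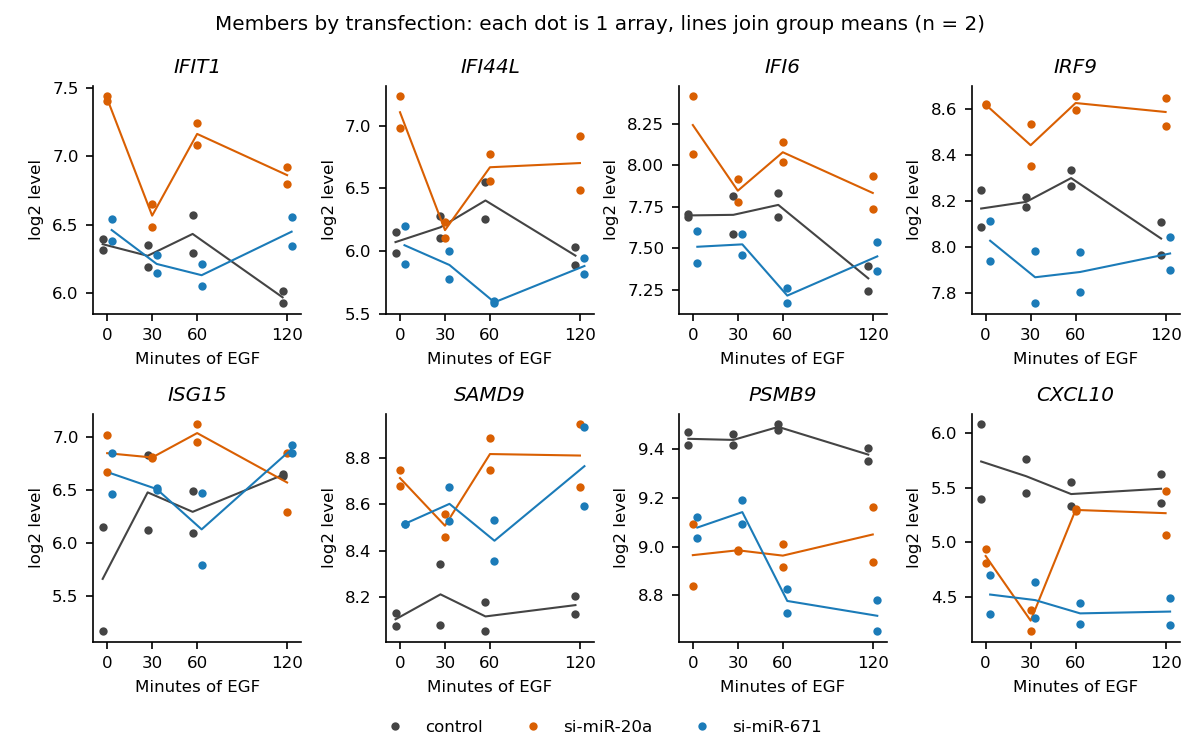
Log2 levels of IFIT1, IFI44L, IFI6, IRF9, ISG15, SAMD9, PSMB9 and CXCL10 on each of the 24 arrays (points) against minutes of EGF, with lines through the means of 2 arrays for each transfection and a separate vertical scale for each gene. IRF9 and SAMD9 with si-miR-20a lie wholly above control, PSMB9 lies below control in both targeted transfections, and CXCL10 with si-miR-671 stays at or below 4.70.

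With si-miR-671 most of the called genes were lower. Averaged over the 4 times, 14 of 39 were lower than in control and 2 were higher, beside 7.70% of all probe sets called lower and 6.79% called higher. The median over the 39 was -0.18, beside 0.00 over all probe sets. The higher genes were TRAFD1 and SAMD9, and the deepest of the falls was that of CXCL10. The comparison shares its control arrays with that of si-miR-20a.

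The count depended on the times. Over 0 and 30 min 5 genes were called, TRAFD1 and SAMD9 higher (beside 1.36% of probe sets) and CXCL10, PSMB9 and TRIM22 lower (beside 1.44%). Over 60 and 120 min 15 were called, 13 of them lower (beside 8.37%) and 2 higher (beside 7.04%). The median change of the 39 was -0.15 early and -0.18 late.

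CXCL10 ranged from 4.25 to 4.70 with si-miR-671 (median 4.40), wholly below the control arrays at 5.33 to 6.08 (median 5.50). The log2 change was -1.14 ± 0.11 (limma adjusted p = 4e-06), with -1.17 ± 0.15 early and -1.10 ± 0.15 late. Every si-miR-671 array lies under the lower quartile of its probe sets, and whether these levels are above background was not tested, so no fold is given. PSMB9 ranged from 8.65 to 9.19 (median 8.93), also wholly below control, at -0.51 ± 0.05 on average, -0.33 ± 0.07 early and -0.69 ± 0.07 late.

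Among the other antiviral genes, TRIM22, a ubiquitin ligase that restricts viruses, ranged from 9.74 to 10.02 against 10.21 to 10.35 in control, a log2 change of -0.41 ± 0.05, at -0.28 ± 0.07 early and -0.53 ± 0.07 late, both called. BST2 (-0.40 ± 0.07) and OAS1 (-0.27 ± 0.04), a synthetase that activates RNase L, were likewise lower without overlap of the arrays, and called late (-0.46 and -0.36) but not early (-0.33 and -0.17). OAS2 (-0.36 ± 0.10), IFIT2 (-0.31 ± 0.08), IFI44L (-0.31 ± 0.08), IRF9 (-0.24 ± 0.05) and IRF1 (-0.20 ± 0.06) were called lower with overlapping arrays, and the calls of IFIT2, OAS2 and IRF1 were lost without any 1 of 4, 6 and 10 arrays. The averages of OAS2 and IRF1 hold changes of both signs. OAS2 was 0.13 ± 0.20 from control at 0 min, -0.10 ± 0.14 early and -0.62 ± 0.14 late, where it was called. IRF1 was -0.58 ± 0.12 at 60 min, which was called (beside 5.09% of all probe sets lower), and 0.24 ± 0.12 at 120 min, which was not, so that neither its early (-0.23) nor its late mean (-0.17) was called. The call of IRF1 on the average was also lost with all probe sets tested and in the 16 arrays of si-miR-671 and control (adjusted p 0.063 and 0.053 by limma).

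IFI44L was -0.16 ± 0.11 early and -0.45 ± 0.11 late, the late value called. IRF9 stood at -0.23 early and -0.24 late (SE 0.08 each), called late (limma adjusted p = 0.047), and IFIT2 at -0.29 and -0.33 (SE 0.12 each), called at neither. PARP14, UBE2L6, PARP9 and IFI35 were called at average changes between -0.27 and -0.24. Their early changes ran from -0.21 (UBE2L6) to -0.15 (IFI35) without a call, and their late changes from -0.39 (PARP14) to -0.30 (PARP9), all 4 called. The difference between the late and early change was not called in any of the 14 lower genes.

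SAMD9 ranged from 8.35 to 8.94 (median 8.53), above every control array, 0.43 ± 0.06 higher (limma adjusted p = 0.00025). TRAFD1 ranged from 8.84 to 9.10 (median 8.91), again above every control array, 0.69 ± 0.04 higher (limma adjusted p = 6.6e-08). Both were called at the early times (0.40 ± 0.09 for SAMD9 and 0.44 ± 0.06 for TRAFD1) and at the late ones (0.46 ± 0.09 and 0.93 ± 0.06). IFIT1 was 0.02 ± 0.08 from control early and 0.09 ± 0.08 late, neither of them called. The late mean holds unlike parts: -0.30 ± 0.12 at 60 min, which was not called, and 0.48 ± 0.12 at 120 min, which was (limma adjusted p = 0.024, beside 2.50% of all probe sets called higher).

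**Figure D4:**
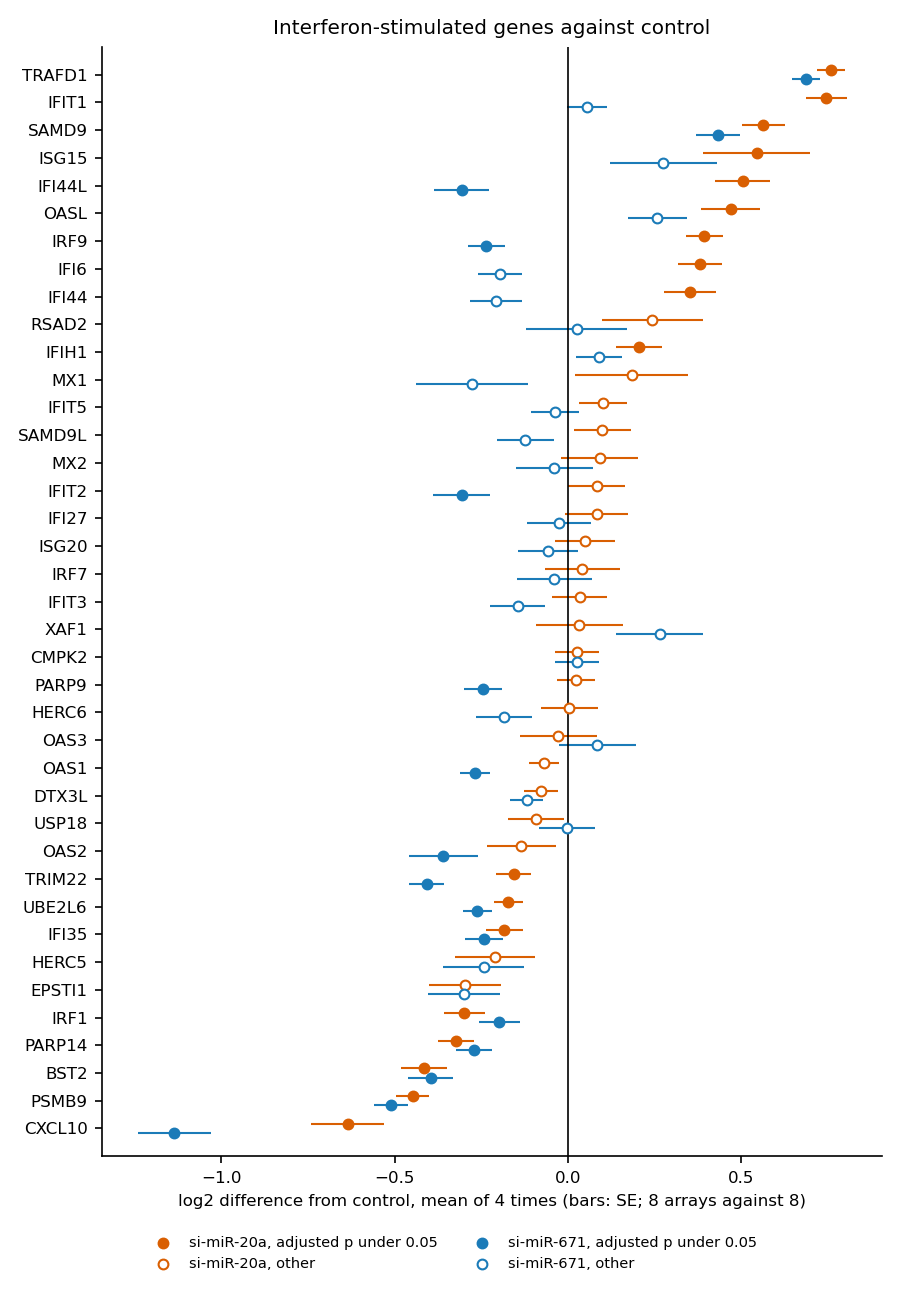
Log2 difference from control, averaged over 4 times with bars of 1 model SE to each side and filled points where called, for the 39 measured genes with si-miR-20a and si-miR-671 (8 arrays a side). TRAFD1 and SAMD9 lie to the right of 0 in both, CXCL10, PSMB9 and BST2 to the left in both, and IRF9, IFI44L, IFI44 and IFI6 lie to the right with si-miR-20a and to the left with si-miR-671.

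Set directly against each other, the targeted transfections differed in 10 of the 39 genes, and in all 10 si-miR-20a was the higher, beside 2.38% of all probe sets called higher and 2.16% called lower. The difference is between the arrays of these transfections, and the control arrays enter through the shared estimate of the spread. The median over the 39 was 0.13, beside 0.01 over all probe sets. The genes were IFI44L, IFIT1, IRF9, IFI6, IFI44, CXCL10, IFIT2, PARP9, TRIM22 and OAS1. In a fit of the 16 arrays alone IFIT2, OAS1, PARP9 and TRIM22 were not called.

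IFI44L ranged from 6.10 to 7.24 with si-miR-20a and from 5.58 to 6.20 with si-miR-671 (medians 6.67 and 5.86), a difference of 0.81 ± 0.08 (1.75-fold, limma adjusted p = 4.9e-05). IFIT1 ranged from 6.48 to 7.44 and from 6.05 to 6.55 (medians 7.0 and 6.31), a difference of 0.69 ± 0.06 (1.61-fold, limma adjusted p = 1.6e-05). In each of these genes the ranges overlapped only at their ends.

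IRF9, from 8.35 to 8.66 against 7.75 to 8.11, differed by 0.63 ± 0.05. IFI6, from 7.73 to 8.42 against 7.17 to 7.60, differed by 0.58 ± 0.06. IFI44, from 6.16 to 6.90 against 5.67 to 6.08, differed by 0.56 ± 0.08. None of these 3 genes had overlapping arrays, and limma adjusted p ran from 1.6e-05 to 0.00074.

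At the early times alone, before the si-miR-671 arrays stood apart, 6 genes were higher with si-miR-20a and 0 were lower (limma), beside 2.74% and 4.77% of all probe sets. They were IFI44L (0.67 ± 0.11), IFIT1 (0.66 ± 0.08), IRF9 (0.58 ± 0.08), IFI44 (0.54 ± 0.11), IFI6 (0.53 ± 0.09) and TRAFD1 (0.23 ± 0.06). CXCL10, PARP9, TRIM22, OAS1 and IFIT2 were not called early. Some of these early differences join unlike times. With si-miR-20a and si-miR-671 the IFI44L group means were 7.11 and 6.05 at 0 min, and 6.17 and 5.89 at 30 min. For IFIT1 they were 7.42 and 6.46, then 6.565 and 6.21, and for IFI6 8.24 and 7.51, then 7.85 and 7.52. IRF9 kept a like gap, at 8.62 and 8.03, then 8.44 and 7.87.

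Other members had the same sign in both transfections and a small difference between them. TRAFD1 differed by 0.07 ± 0.04 between si-miR-20a and si-miR-671, SAMD9 by 0.13 ± 0.06, PSMB9 by 0.06 ± 0.05 and BST2 by -0.02 ± 0.07. None of these passed the test (limma adjusted p 0.30 to 0.92), which does not show that they were equal.

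Whether a member's course over EGF differed by transfection was tested over the 3 times after 0 min. For si-miR-20a against control limma called 0 of the 39 genes, beside 0.0154% of all probe sets, and 4 of 39 had an unadjusted p under 0.05, beside 5.29% of all probe sets. For si-miR-671 against control it called TRAFD1, beside 0.0514% of all probe sets (adjusted p = 0.044), and 10 of 39 had an unadjusted p under 0.05, beside 9.13%.

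The TRAFD1 arrays show the difference at 120 min. In control they read 8.41 and 8.51 at 0 min, 8.49 and 8.49 at 30 min, 8.35 and 8.40 at 60 min, and 7.75 and 7.56 at 120 min. In si-miR-671 they read 8.88 and 8.90 at 0 min, 8.93 and 8.96 at 30 min, 9.10 and 8.96 at 60 min, and 8.84 and 8.90 at 120 min. The control level fell by 0.81 ± 0.08 from 0 to 120 min, while the si-miR-671 level changed by -0.02 ± 0.08, which was not called. In si-miR-20a the fall was 0.60 ± 0.08. The gap between si-miR-671 and control was 0.49 ± 0.08 larger over 60 and 120 min than over 0 and 30 min (limma adjusted p = 0.015, beside 0.519% of probe sets called), a call that held without any 1 of the 24 arrays. The test over all 3 times lost its call without any 1 of 20 of the 24 arrays (adjusted p 0.051 to 0.14).

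A further 3 members had low p-values that did not pass. IFI44L in si-miR-20a read 7.24 and 6.98 at 0 min, 6.10 and 6.23 at 30 min, 6.56 and 6.78 at 60 min, and 6.49 and 6.92 at 120 min. IFIT1 in si-miR-20a read 7.44 and 7.40 at 0 min, 6.48 and 6.65 at 30 min, 7.08 and 7.24 at 60 min, and 6.80 and 6.92 at 120 min. Both genes were lowest at 30 min there, a fall of 0.94 ± 0.16 for IFI44L and 0.86 ± 0.12 for IFIT1, and both falls were called. In control the same step was 0.12 ± 0.16 and -0.08 ± 0.12. CXCL10 in si-miR-20a read 4.94 and 4.81 at 0 min, 4.38 and 4.19 at 30 min, 5.31 and 5.29 at 60 min, and 5.07 and 5.47 at 120 min. For the course as a whole limma adjusted p was 0.51, 0.58 and 0.72 for IFI44L, IFIT1 and CXCL10.

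EPSTI1, a gene induced by interferon and by contact of epithelium with stroma, moved apart between the targeted transfections. In si-miR-20a it read 4.52 and 4.37 at 0 min and 5.29 and 5.12 at 120 min, a rise of 0.76 ± 0.21. In si-miR-671 it read 5.22 and 5.22 at 0 min and 4.66 and 4.04 at 120 min, a fall of 0.87 ± 0.21. Both changes were called, and in control the change was 0.01 ± 0.21. The difference between si-miR-20a and si-miR-671 was 1.00 ± 0.21 larger over the late than over the early times (limma adjusted p = 0.036, beside 1.33% of probe sets called), and it lost its call without any 1 of 14 of the 24 arrays (adjusted p 0.052 to 0.11), with all probe sets tested (0.062) and in the 16 arrays of these transfections (0.092). These levels lie close to the lower quartile of the arrays.

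Other genes of the interferon pathway, 69 of them measured outside the list, give the setting. With si-miR-20a 7 were higher and 20 lower than in control, and with si-miR-671 1 was higher and 23 were lower, beside the shares of probe sets given above. The 7 were 1 of the kinases and transcription factors, 2 sensors and adaptors, 3 effectors and 1 inhibitor, at changes up to 0.66. The 0.66 was that of TLR4, a sensor whose control arrays read 2.657 to 4.455, under the lower quartile of the arrays. At 120 min of EGF 6 of the 69 were higher and 9 lower than at 0 min, beside 7.13% and 6.27% of all probe sets. With si-miR-671 the early times gave 4 lower genes (IFNGR2, IKBKE, GBP2 and SOCS3) and 0 higher, and the late times 21 lower and 1 higher. Its averages below therefore join times with unlike numbers of calls, and these counts do not give the size of the early and late changes. Of 12 interferon ligands measured, 0 were called in either transfection average by limma. With EGF, IFNE was called lower at 60 min (-0.93) and higher at 120 min (0.86), beside 0.493% and 7.13% of all probe sets. Its levels lay close to the lower quartile of the arrays, and its lowest array was si-miR-671 60 min replicate 2, at 2.36.

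Of the 6 receptor chains measured, 5 were lower in both transfections. IFNGR2, a chain of the interferon gamma receptor, changed by -0.69 ± 0.05 with si-miR-20a and -0.56 ± 0.05 with si-miR-671, from control levels of 10.77 to 10.96 without overlap. IFNAR2, of the type I receptor, changed by -0.76 ± 0.10 and -0.45 ± 0.10. IFNGR1 (-0.47 and -0.41), IL10RB (-0.33 and -0.32) and IFNAR1 (-0.30 and -0.22) were lower by less, and IFNLR1 was not called. With si-miR-671 at the early times, IFNGR2 was the receptor chain called (-0.40).

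JAK2, the kinase bound to the interferon gamma receptor, changed by -0.80 ± 0.08 with si-miR-20a and -0.60 ± 0.08 with si-miR-671. STAT3 changed by -0.23 and -0.24, and IRF2, which opposes IRF1 at shared sites, was called with si-miR-671 alone (-0.31 ± 0.07). Among 15 sensors and adaptors, IKBKE, a kinase that activates interferon regulatory factors, changed by -0.58 and -0.51, and STING1, the adaptor of DNA sensing, by -0.24 and -0.22. CGAS, the DNA sensor upstream of it, was higher by 0.27 and 0.22.

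Among 17 further effectors, GBP2, a guanylate-binding protein, changed by -0.76 ± 0.05 with si-miR-20a and -0.54 ± 0.05 with si-miR-671, and PSMB8, an immunoproteasome subunit like PSMB9, by -0.36 and -0.29. IFITM1, which blocks virus entry, changed by -0.89 ± 0.12 and -0.53 ± 0.12. GBP3 went apart, at 0.22 ± 0.06 and -0.29 ± 0.06, and differed by 0.51 ± 0.06 between the targeted transfections (limma adjusted p = 0.00019). SOCS3, an inhibitor of Janus kinases, rose by 0.56 ± 0.09 at 30 min of EGF and was 0.71 ± 0.09 below 0 min at 120 min. These averages hold unlike steps. In control it read 6.50 and 6.25 at 0 min, 6.92 and 6.75 at 30 min, and 5.49 and 4.93 at 120 min. In si-miR-671 it read 5.29 and 5.35, 6.36 and 6.32, and 5.14 and 4.86 at these times. In si-miR-20a it read 5.53 and 5.37, 5.65 and 5.65, and 4.85 and 4.79. Over the 4 times SOCS3 changed by -0.74 with si-miR-20a and -0.58 with si-miR-671.

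**Figure D5:**
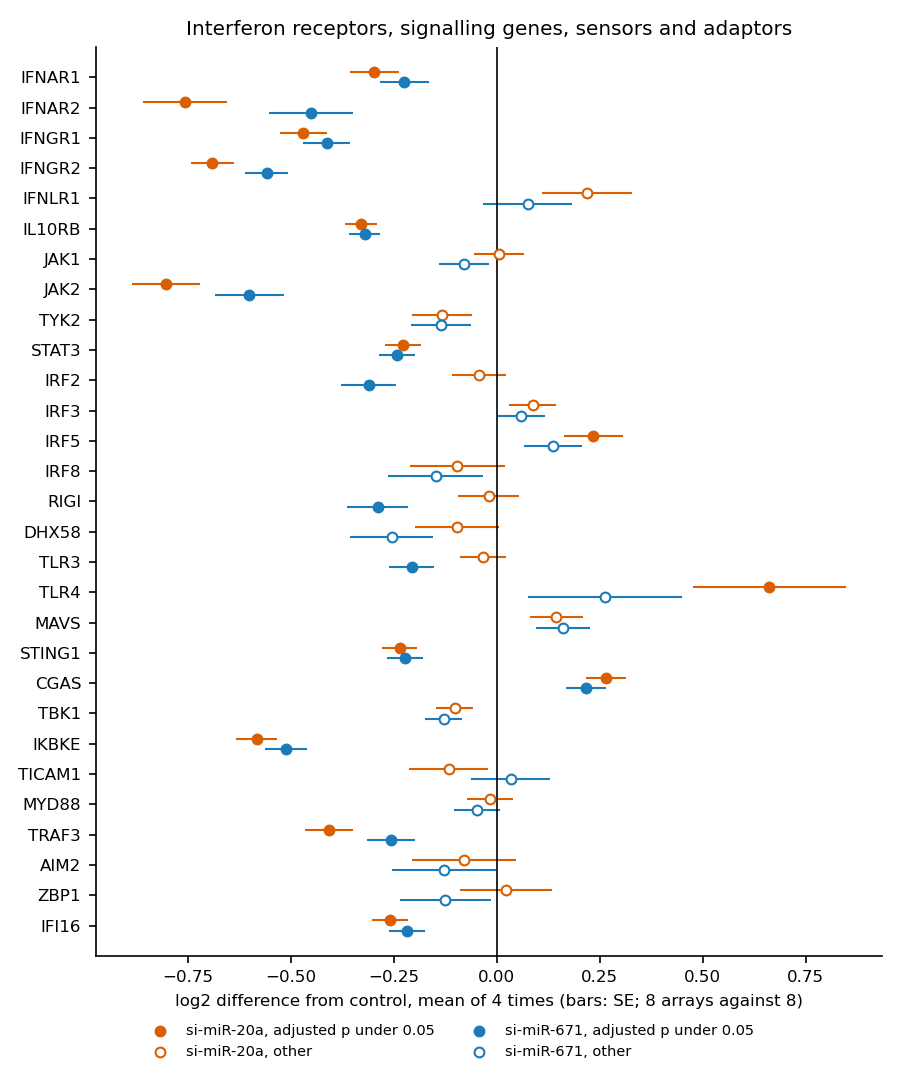
Log2 difference from control, averaged over 4 times with bars of 1 model SE to each side and filled points where called, for receptors, kinases and transcription factors, and sensors and adaptors of the interferon pathway outside the list (8 arrays a side). The receptor chains other than IFNLR1, JAK2 and IKBKE lie left of 0 in both transfections, and CGAS lies right of 0 in both.

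Some of the 23 markers of cell type moved with EGF and with the transfections. At 120 min of EGF 5 were higher, VWF (0.48), LAMB3 (0.32), PECAM1 (0.28), CDH1 (0.24) and CDH3 (0.17), and CD14 was lower (-0.40 ± 0.06, limma adjusted p = 0.00041). Of all probe sets 7.13% were called higher there and 6.27% lower. The mean level of the immune list ran from 6.19 to 6.39 over the arrays at 0 min and from 6.10 to 6.54 at 120 min. That of the endothelial and fibroblast list ran from 6.37 to 6.48 at 0 min and from 6.33 to 6.74 at 120 min. Against control 6 of the 23 were higher and 2 lower with si-miR-20a, beside 11.9% and 12.7% of all probe sets. With si-miR-671 3 were higher and 3 lower, beside 6.79% and 7.70%. Among the basal markers KRT14 was higher in both transfections (0.26 and 0.17) and ITGB4 with si-miR-20a (0.25), while CDH3 was lower in both (-0.11 and -0.17) and LAMB3 with si-miR-671 (-0.13). The average of LAMB3 holds unlike parts, -0.28 ± 0.06 early and 0.02 ± 0.06 late. The epithelial genes CDH1 and EPCAM were higher with si-miR-20a (0.46 and 0.43) and with si-miR-671 (0.21 and 0.50), and their mean level ran from 8.74 to 8.84 in control, 9.13 to 9.45 with si-miR-20a and 9.0 to 9.32 with si-miR-671. Of the 5 immune markers, CD14 was lower (-0.21 and -0.30) and the mean level of the 5 ran from 6.27 to 6.50 in control, 6.22 to 6.53 with si-miR-20a and 6.10 to 6.54 with si-miR-671. Of the 6 endothelial and fibroblast markers, DCN (0.39) and PECAM1 (0.27) were higher with si-miR-20a. DCN stood at 0.07 ± 0.12 early and 0.71 ± 0.12 late. The mean level of the 6 ran from 6.33 to 6.61 in control, 6.40 to 6.83 with si-miR-20a and 6.37 to 6.74 with si-miR-671. Of the 5 luminal markers, 0 were called in these averages. The part of the 23 markers in the changes of the interferon-stimulated genes was not tested.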

How the data were processed

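MCF10A transcripts were profiled on 24 Affymetrix Human Gene 1.0 ST arrays, in 12 groups of 2. The authors deposited 1 log2 value per probe set (33297 probe sets, 0 missing values, 0 value columns of no sample), made with Affymetrix Expression Console per the submitters' processing notes. The software version, the probe summary and any normalization are not given in the sources used here, and the log base was read from the range of the values. They were used without further normalization. GEO's platform annotation gave 1 symbol to 19460 probe sets, several to 1754 and none to 12083. Gene IDs of 19429 were found in RefSeq, with 0 symbols changed. The number of arrays limits the precision.

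Group means were fitted to all 24 arrays with lmFit and eBayes of limma 3.58.1 (R 4.3.3, 12 residual and 2.57 prior degrees of freedom, prior SD 0.136), with Benjamini-Hochberg adjustment over 19460 probe sets and calls at an adjusted p under 0.05. The steps were tested on simulated data. Other work used Python 3.11.15, numpy 2.4.6, pandas 2.3.3 and matplotlib 3.10.9. Contrasts averaged EGF over transfections, or transfections over times, and a moderated F tested differences of the EGF response. Errors are model SEs.

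Replicate numbers gave no uniform pairing of the arrays: over 66 pairs of groups the correlation of replicate differences ran from -0.57 to 0.55 (median 0.063, 30 above 0.1). These pairs lay within and between transfections, so pairing within a transfection was not tested. An exact permutation test of 2 arrays against 2 cannot go below 0.33, and contrasts at 1 time use the spread pooled over groups.

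The 41 genes, the pathway list and the marker lists were chosen with earlier results of these data known. By the naming rule any of the 41 could be named, with array values for those called at a log2 change of at least 0.5 and for the lowest p of each response difference, and pathway genes where called. Alternatives were another scaling, a filter on low values, all probe sets, a mean over a gene's probe sets, a trended robust fit, array weights, a replicate block, a 1.2-fold minimum, fits of the 16 arrays of a pair of transfections, single transfections or times, and leaving out each array. Promoter and microRNA sequences were RefSeq's on GRCh38.p14.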

Additional observations from a re-analysis of the deposited data

Results flagged for a closer look

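These results rest on a test of the difference between a pair of effects. The course of TRAFD1 over EGF was called different between si-miR-671 and control (limma's moderated F, adjusted p = 0.044). That call was lost without any 1 of 20 of the 24 arrays and in 3 other settings (limma adjusted p 0.051 to 0.11). The gap of TRAFD1 to control was 0.49 larger on the log2 scale at the late than at the early times, a call that held without any 1 array. For EPSTI1 the difference of si-miR-20a from si-miR-671 was 1.0 larger at the late times, a call lost with all probe sets tested and in the 16 arrays of these transfections (limma adjusted p = 0.062 and 0.092). The effects of si-miR-20a and si-miR-671 on the average over times differed, with si-miR-20a the higher, in IFI44L (0.81), IFIT1 (0.69), IRF9 (0.63), IFI6 (0.58), IFI44 (0.56), CXCL10 (0.50), IFIT2 (0.39), PARP9 (0.27), TRIM22 (0.25) and OAS1 (0.20). The calls of IFIT2, PARP9, TRIM22 and OAS1 were lost in a fit of the 16 arrays of these transfections (limma adjusted p 0.052 to 0.076). IRF9 and IFI44L were called above control with si-miR-20a and below it with si-miR-671, while CXCL10 and TRIM22 were called below control with both.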

How the results depend on the processing

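With the replicate number as a block, 19 genes were called for si-miR-20a against control, 17 for si-miR-671 against control and 10 between them. That fit gave 2, 1 and 8 at 30, 60 and 120 min of EGF, and 0 and 1 for the response differences. Whether the replicate number pairs these arrays is not established. The block moved no count by more than 1.5 times. For EGF, control arrays alone gave 0, 0 and 3 called genes at 30, 60 and 120 min. The si-miR-671 arrays alone gave 0 at 30 min and 4 at 120 min, the si-miR-20a arrays alone 0 at 60 min, and control with si-miR-20a 1 at 30 min and 0 at 60 min. For si-miR-20a against control the counts at single times were 8, 5, 6 and 10 at 0, 30, 60 and 120 min. For si-miR-671 they were 2, 2 and 9 at 0, 30 and 120 min, and 5 over 0 and 30 min. Between the targeted transfections they were 4, 1, 4 and 5 at single times and 6 over 0 and 30 min. A fit of the 16 arrays of those transfections gave 6, with IFIT2, OAS1, PARP9 and TRIM22 lost (adjusted p 0.052 to 0.076 by limma). Single times hold fewer arrays. No shares of all probe sets are set beside these single-time counts, so they describe only how the counts move with the times. TRAFD1's response difference was lost with all probe sets tested, with a mean over a gene's probe sets and in the 16 arrays of si-miR-671 and control, which gave 0 called genes each. EPSTI1's late minus early difference and the calls of PARP14, UBE2L6, IFI35, IFIH1, TRIM22 (si-miR-20a) and IRF1 (si-miR-671) were each lost in 1 or 2 settings, as given above.

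Leaving out each array in turn gave 2 to 2, 0 to 1 and 5 to 10 genes at 30, 60 and 120 min (5 without si-miR-671 120 min replicate 1 or si-miR-20a 0 min replicate 1), 15 to 19 for si-miR-20a, 13 to 18 for si-miR-671, 10 to 11 between them, and 0 to 0 and 0 to 1 for the response differences of si-miR-20a and si-miR-671. Of 58 calls followed, 46 held without any 1 array. Besides those of IFIT2 at 60 min, TRAFD1 and EPSTI1 described above, 9 calls were lost, at adjusted p 0.051 to 0.10 by limma. At 120 min of EGF these were IFI6 (without control 120 min replicate 1, si-miR-671 0 min replicate 1, si-miR-671 120 min replicate 1, si-miR-20a 0 min replicate 1 or si-miR-20a 120 min replicate 2), PARP14 (without control 0 min replicate 1, control 0 min replicate 2, control 120 min replicate 2, si-miR-671 0 min replicate 2, si-miR-671 120 min replicate 1, si-miR-20a 0 min replicate 1 or si-miR-20a 120 min replicate 2) and UBE2L6 (without control 0 min replicate 2, control 120 min replicate 1, si-miR-671 0 min replicate 1, si-miR-671 120 min replicate 1, si-miR-20a 0 min replicate 1 or si-miR-20a 120 min replicate 2). With si-miR-20a they were IFI35 (without control 0 min replicate 1, control 60 min replicate 2, si-miR-20a 30 min replicate 2, si-miR-20a 60 min replicate 2 or si-miR-20a 120 min replicate 2), IFIH1 (9 arrays) and TRIM22 (11 arrays). With si-miR-671 they were IFIT2 (without control 30 min replicate 1, si-miR-671 0 min replicate 1, si-miR-671 30 min replicate 1 or si-miR-671 60 min replicate 2), OAS2 (without control 0 min replicate 2, control 30 min replicate 1, control 60 min replicate 1, control 120 min replicate 2, si-miR-671 0 min replicate 2 or si-miR-671 60 min replicate 1) and IRF1 (10 arrays). No followed contrast changed direction without any 1 array or in the 8 or 9 other fits of all times. At single times 4 of the called averages against control had a part of the opposite sign, none of these parts called. They were IFI44L (30 min, -0.02) and ISG15 (120 min, -0.07) with si-miR-20a, and OAS2 (0 min, 0.13) and IRF1 (120 min, 0.24) with si-miR-671. Between the targeted transfections, CXCL10 and OAS1 were lower with si-miR-20a than with si-miR-671 at 30 min, against the sign of their averages. The group means were 4.289 and 4.476 for CXCL10 and 8.035 and 8.123 for OAS1. In single transfections no called EGF average had a part of the opposite sign. The cause of these changes was not tested. Low levels, as of RSAD2, CXCL10, EPSTI1 and OASL, limit what the arrays can show.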
